A study of Rattus norvegicus with 16 samples.

Results

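Arc and Npas4, a pair of genes that neurons transcribe when they are active, were measured in the nucleus basalis of Meynert of stressed and control rats of both sexes. They were selected by Ensembl identifier, ENSRNOG00000043465 for Arc and ENSRNOG00000020009 for Npas4, on condition that the count files place them on chromosomes 7 and 1. Both met the condition, so 2 of the 32883 genes in the files are described. The symbols came with this selection. The RefSeq table at hand holds 0 Ensembl identifiers and pairs no identifier with a name, but it places genes called Arc and Npas4 on the same chromosomes.

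The 4 groups were stressed females, control females, stressed males and control males, with 4 RNA-seq libraries each. All came from Long Evans rats labelled as ChAT::Cre, a line in which Cre recombinase is made by cells that express choline acetyltransferase, at an age of at least 70 days. Control rats carry the same transgene. The nucleus basalis belongs to the basal forebrain, and its cholinergic cells send axons to the cortex. Since the labels do not tie each library to its own animal, p-values reflect only how far these libraries scatter, which may be technical. The form of stress and the time between the last stress and tissue collection are not given in the sources used here. Replicates are numbered in accession order. For stressed females the title and the count file carry different numbers, so a single library of that group cannot be tied to a title with certainty.

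Arc and Npas4 are immediate early genes: synaptic activity and calcium entry start their transcription without new protein synthesis, and the transcripts are short-lived. Arc messenger RNA travels into dendrites, where Arc protein takes part in the removal of AMPA-type glutamate receptors from synapses. Npas4 is a transcription factor with a basic helix-loop-helix and a PAS domain that pairs with ARNT proteins. It is known for its selectivity for calcium signals and for its part in the formation of inhibitory synapses in rodents. Both are used as markers of recently active neurons. In bulk tissue, fewer neurons and less RNA per neuron cannot be told apart.

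On Rnor_6.0, the build of the count files, Arc lies on chromosome 7 at 115907097 to 115910541, on the minus strand. Its annotated exons merge into 3 blocks with 3026 bases in all. Npas4 lies on chromosome 1 at 220261008 to 220265772, also on the minus strand, with 8 exon blocks and 2460 bases. Neither gene overlaps another annotated gene in these files (0 overlapping genes for each), so their counts are not shared with an antisense or overlapping neighbour. RefSeq gives a 300-base promoter window for Npas4 on build GRCr8, and its first 120 bases are shown because they hold a match to the TATA box pattern. They lie at chr1:211716233-211716352 on the minus strand, and capitals mark the match to the TATA box pattern TATANAN.
Npas4: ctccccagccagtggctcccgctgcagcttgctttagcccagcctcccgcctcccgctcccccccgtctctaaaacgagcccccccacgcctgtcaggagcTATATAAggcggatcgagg

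The match in capitals begins at -149 relative to the start site that the RefSeq table uses, and a match on the opposite strand overlaps it. Whether this match works as a TATA box was not tested. Of 33469 windows of this length, 26.4% hold the TATA box pattern on either strand. The Npas4 window also holds 1 E-box (CANNTG), as 72.1% of windows do. On both strands, 0 matches were found to the cyclic AMP response element (TGACGTCA, in 1.83% of windows), its core (TGACG, 21.2%), the serum response element (1.64%), the AP-1 site (TGANTCA, 7.33%), the Egr site (GCGNGGGCG, 4.98%), the glucocorticoid response element (0.0388%) and its core (AGAACA, 20.7%). The cores lie within the full elements. The window is rich in G and C, at 67% against a median of 51.67% over all windows.

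Library totals were 22.7 to 38.2 M (mega) counts in 13 libraries with the layout of HTSeq output. They were 63.1 to 73.8 M in 3 libraries counted with featureCounts, which are control female 4, stressed male 1 and control male 4. The featureCounts command, per the file headers, counted each mate of a pair on its own, so a fragment can enter once for each mate. Mitochondrial genes held 64.2% to 82.5% of the counts, and nuclear genes 5.86 to 22.6 M. In control female 2 and stressed male 4, 40.8% and 38.8% of entries were not aligned, against 13.2% to 15.4% in the other HTSeq libraries. The part of this measure in their Arc and Npas4 levels was not tested. Levels are given as counts per M counts (CPM) after trimmed mean of M-values (TMM) scaling. Counts per library ran from 105 to 496 for Arc and from 18 to 155 for Npas4. Counting intervals cover counting error only, and are too narrow where mates were counted apart.

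Arc was detected in all 16 libraries, at a mean of 6.92 CPM that exceeded the mean of 60.1% of the 14241 genes tested. Per kilobase of exon its level was 2.29 ± 0.64 CPM (SD, n = 16). Npas4 was lower, at a mean of 1.48 CPM, above 28.4% of the genes tested, and at 0.604 ± 0.44 CPM per kilobase (SD, n = 16). Per kilobase, Arc exceeded Npas4 in every one of the 16 libraries. The ratio of Arc to Npas4 per kilobase ran from 1.25 in stressed female 4 to 18.8 in control female 4.

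Arc in females did not separate by stress. The stressed females had 6.51, 6.16, 8.81 and 7.18 CPM, against 6.82, 9.92, 4.85 and 5.22 CPM in control females. The highest and the lowest value of the 8 both belong to controls, and the stressed libraries lie between them. The means were 7.16 ± 1.2 CPM in stressed and 6.70 ± 2.3 CPM in control females (SD, n = 4 each). By edgeR's quasi-likelihood test the log2 fold change was 0.11 (SE 0.28, 95% confidence interval -0.48 to 0.71, adjusted p = 0.980). A rise of up to 1.63-fold and a fall to 0.716 of the control level are both within that interval. The estimate was -0.01 without control female 3, 0.00 without control female 4, -0.0047 without stressed female 3 and 0.35 without control female 2, and 0.00 in the HTSeq libraries alone (adjusted p of 0.975 or more in each by edgeR). In this comparison 0.0632% of the genes tested were called, at an adjusted p under 0.05.

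In males, Arc was higher on average in the stressed group, and the groups overlapped. Stressed males had 9.38, 8.15, 6.87 and 7.55 CPM, against 7.12, 8.86, 2.47 and 4.84 CPM in control males. All 4 stressed libraries lie above the median of the controls, and 2 controls lie below all stressed libraries. Stressed male 1, a featureCounts library, lies above all controls, while the other stressed libraries lie within their range. The means were 7.99 ± 1.1 CPM in stressed and 5.82 ± 2.8 CPM in control males (SD, n = 4 each). The log2 fold change was 0.47 (SE 0.28, 95% confidence interval -0.12 to 1.07), which edgeR did not call (adjusted p = 0.730; 0.119% of genes called). The size hung on single controls: without control male 3, the library with 2.47 CPM, the log2 fold change was 0.21, and without control male 2 it was 0.74 (adjusted p = 0.878 and 0.512 by edgeR). In the HTSeq libraries alone it was 0.30 (adjusted p = 0.944 by edgeR). Control male 3 also had 22.0% of reads outside genes, against 16.6% and 19.0% in control males 1 and 2. Its mitochondrial share was 70.8%, against 74.6% to 78.3% in the other control males. The part of these measures in its Arc level was not tested.

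**Figure D1:**
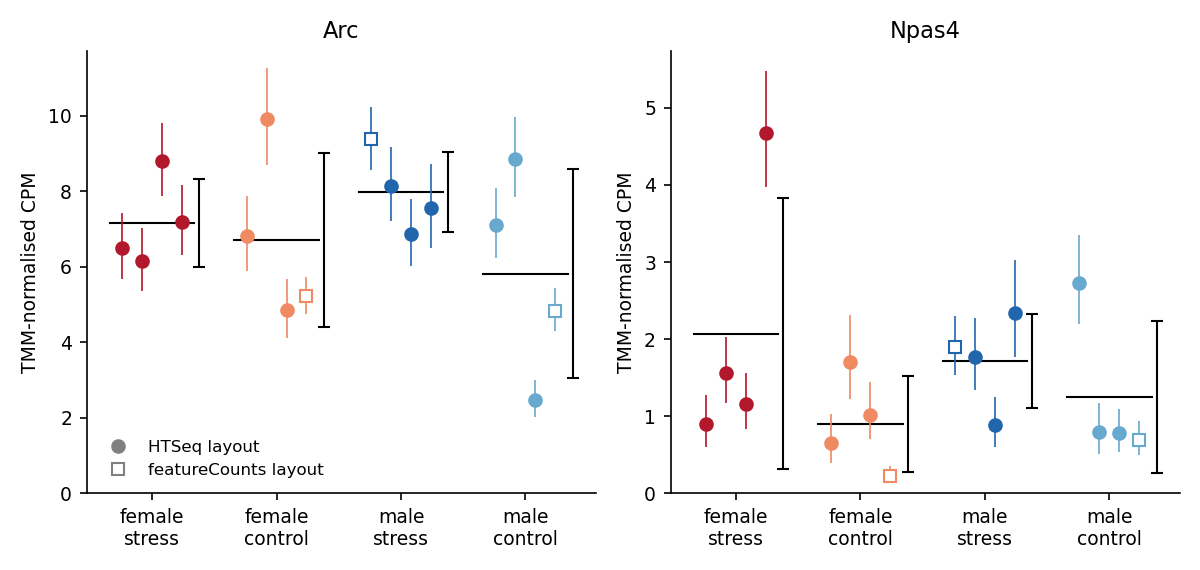
Arc and Npas4 in each library (points, TMM-normalised CPM; vertical lines through points are 95% Poisson intervals of the counts), with group means (horizontal lines) and SD (black bars, n = 4). Squares are the 3 featureCounts libraries. Groups overlap in both sexes; the highest Npas4 value is 4.68 CPM in a stressed female and the lowest 0.226 CPM in a control female.

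The largest stress estimate of the 2 genes was that of Npas4 in females, and its size rested on single libraries. Stressed females had 0.895, 1.55, 1.15 and 4.68 CPM, against 0.653, 1.70, 1.02 and 0.226 CPM in control females. Only stressed female 4 lies above all controls, 2 controls lie below all stressed libraries, and the rest are intermixed. The 155 counts behind the 4.68 CPM give a 95% interval of 3.97 to 5.48 CPM, which is clear of the next stressed library at 1.17 to 2.03 CPM. The difference between these libraries is thus larger than counting error.

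The means of Npas4 were 2.07 ± 1.8 CPM in stressed and 0.900 ± 0.63 CPM in control females (SD, n = 4 each). The log2 fold change was 1.30 (SE 0.65, 95% confidence interval -0.08 to 2.67), not called by edgeR (adjusted p = 0.779). Without stressed female 4 it was 0.51 (adjusted p = 0.971 by edgeR). Without control female 4, the featureCounts library with 0.226 CPM, it was 0.88 (adjusted p = 0.976 by edgeR), and without control female 2, at 1.70 CPM, it was 1.80 (adjusted p = 0.945 by edgeR). Stressed female 4 also had the highest share of reads outside genes, 31.2% against 15.0% to 17.3% in the other stressed females, and the lowest mitochondrial share of that group, at 69.6%. The part of these measures in its Npas4 level was not tested. Arc in the same library, at 7.18 CPM, lies inside the range of the other stressed females.

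In males Npas4 was again higher on average in the stressed group, and 3 of 4 control libraries were low. Stressed males had 1.89, 1.77, 0.880 and 2.34 CPM, against 2.73, 0.794, 0.776 and 0.691 CPM in control males. All 4 stressed libraries exceed the 3 low controls, while control male 1 exceeds all stressed libraries. The means were 1.72 ± 0.61 CPM in stressed and 1.25 ± 0.99 CPM in control males (SD, n = 4 each). The log2 fold change was 0.48 (SE 0.62, 95% confidence interval -0.84 to 1.79), not called by edgeR (adjusted p = 0.912). Without control male 1 it was 1.18 (adjusted p = 0.820 by edgeR). It was 0.26 without control male 4, 0.30 without control male 3, 0.31 without stressed male 4 and 0.20 in the HTSeq libraries alone, with adjusted p by edgeR up to 0.988.

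Averaged over the sexes, Npas4 had a log2 fold change of 0.89 (SE 0.45, 95% confidence interval -0.06 to 1.84) and Arc of 0.29 (SE 0.20, 95% confidence interval -0.13 to 0.71). Neither was called by edgeR's quasi-likelihood test, with adjusted p of 0.523 for Npas4 and 0.663 for Arc, in a comparison that called 48 genes, 0.337% of those tested. For Npas4 the estimate was 0.49 without stressed female 4, 0.54 in the HTSeq libraries alone and 1.24 without control male 1 (adjusted p = 0.714, 0.864 and 0.360 by edgeR). For Arc it was 0.16 without control male 3 and 0.15 in the HTSeq libraries alone (adjusted p = 0.767 and 0.939 by edgeR). The median log2 fold change of all genes tested was 0.01.

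The size of the Npas4 estimate was not small beside the genes that were called: 27 of the 48 had a smaller absolute log2 fold change. Its standard error, 0.45, was larger than that of 94.99% of the genes tested, and the median among the called genes was 0.13. At the standard errors of this filtered edgeR fit, the average effect would have been called at an absolute log2 fold change of 2.19 for Npas4 and 0.94 for Arc.

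**Figure D2:**
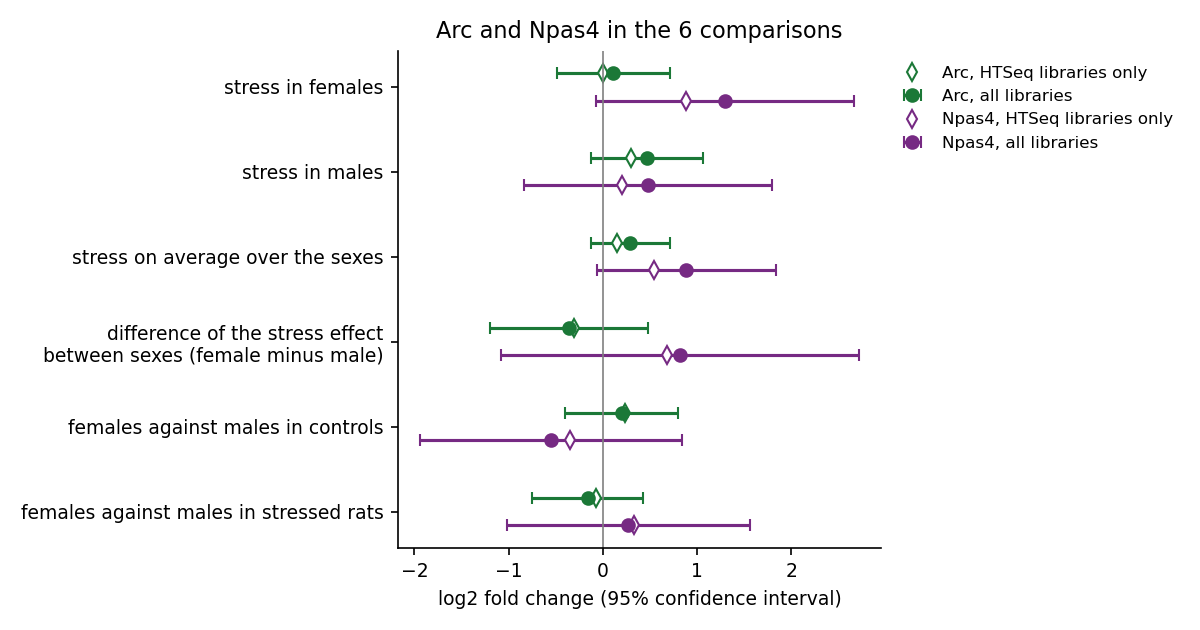
Log2 fold changes of Arc (green) and Npas4 (purple) in the 6 comparisons from edgeR over all 16 libraries, with 95% confidence intervals; open diamonds are estimates from the 13 HTSeq libraries. All 12 intervals include 0; the Npas4 interval for stress in females runs from -0.08 to 2.67.

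The calls were compared across tools. Over the 6 comparisons and 2 genes, 0 of 12 values had an adjusted p under 0.05 by edgeR, by DESeq2 or by limma voom. At an unadjusted p under 0.05 there were 0 of 12 by edgeR, 0 by DESeq2 and 4 by limma voom. Of all genes tested, 4.01% to 10.2% had an unadjusted p under 0.05 by edgeR and 4.73% to 12.2% by limma voom. By DESeq2 the share was 2.74% to 6.52%. These ranges are over the 6 comparisons. DESeq2 was run without the low-count filter and tested 25179 genes, against 14241 for edgeR and limma voom, so its shares are over a different set. By limma voom the lowest adjusted p of the 2 genes was 0.195, for Npas4 on average over the sexes. Where edgeR was run with no filter on low counts, Npas4 passed in females (log2 fold change 1.29, SE 0.31, adjusted p = 0.0138) and on average (0.88, SE 0.22, adjusted p = 0.0115). The fold changes are close to those of the filtered fit and the standard errors are smaller; the cause was not tested. The unfiltered fit called 105 genes for stress in females, against 9 with the filter, and 207 for the average effect, against 48. That fit tested every gene with a count, and how many these were was not recorded. Their number lies between 25179, the genes given a p by DESeq2 on the same counts, and the 32883 genes in the files. So no exact share of genes called can be set beside the Npas4 calls.

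The stress effect of neither gene was shown to differ between the sexes. The difference, female minus male, was -0.36 on the log2 scale for Arc (SE 0.40, 95% confidence interval -1.20 to 0.48) and 0.82 for Npas4 (SE 0.89, 95% confidence interval -1.08 to 2.72). Both had an adjusted p of 1.00 by edgeR's quasi-likelihood test. That test called 0 of 14241 genes (0%), with 571 at an unadjusted p under 0.05, while DESeq2 called 1 and limma voom 0. With single libraries left out, the Npas4 difference was 0.04 without stressed female 4, 0.10 without control male 1 and 1.33 without control female 2. The Arc difference was -0.10 without control male 3 and -0.63 without control male 2. The intervals leave room for a sizeable difference in either direction.

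Females and males were also compared within each condition. Among stressed rats, Arc had a log2 fold change of -0.16 (SE 0.28, 95% confidence interval -0.75 to 0.43, adjusted p = 0.973 by edgeR; 0.0913% of genes called), female over male. Npas4 had 0.27 in the same comparison (SE 0.61, 95% confidence interval -1.02 to 1.56, adjusted p = 0.987 by edgeR), and -0.50 without stressed female 4. Among controls, Arc had 0.20 (SE 0.29, 95% confidence interval -0.40 to 0.80, adjusted p = 0.947 by edgeR; 0.112% of genes called), with -0.04 without control female 2 and -0.06 without control male 3. Npas4 had -0.55 (SE 0.66, 95% confidence interval -1.94 to 0.84, adjusted p = 0.931 by edgeR), and 0.17 without control male 1. None of these 4 sex differences was called, and leaving out a single library turned the sign of Npas4 in both conditions and of Arc in controls.

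For Arc, the group means were highest in stressed males, then stressed females, control females and control males. Each neighbour in that order overlaps the next, and exact permutation tests of log2(CPM + 0.1) gave two-sided p of 0.314, 0.629 and 0.543. For Npas4 the order was stressed females, stressed males, control males and control females, with two-sided exact permutation p of 0.943, 0.371 and 0.514 between neighbours. In both genes, and in both sexes, the mean of the stressed group was above that of its controls. All 4 stressed libraries also exceeded the median of their controls. The share of all genes tested with this pattern was not computed, so how common it is cannot be said. In the remaining pairs the stress effect had p = 0.229 for Arc in males and 0.229 for Npas4 in females by the same exact test. Adjusted over these 8 tests, p was 0.718 or more, and 4 against 4 libraries cannot give a p under 0.0286. The groups overlapped in all 8 tests, whereas 3.31% of all genes tested did not overlap for stress in females, 5.27% for stress in males, 3.76% between the sexes in stressed rats and 3.35% in controls.

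**Figure D3:**
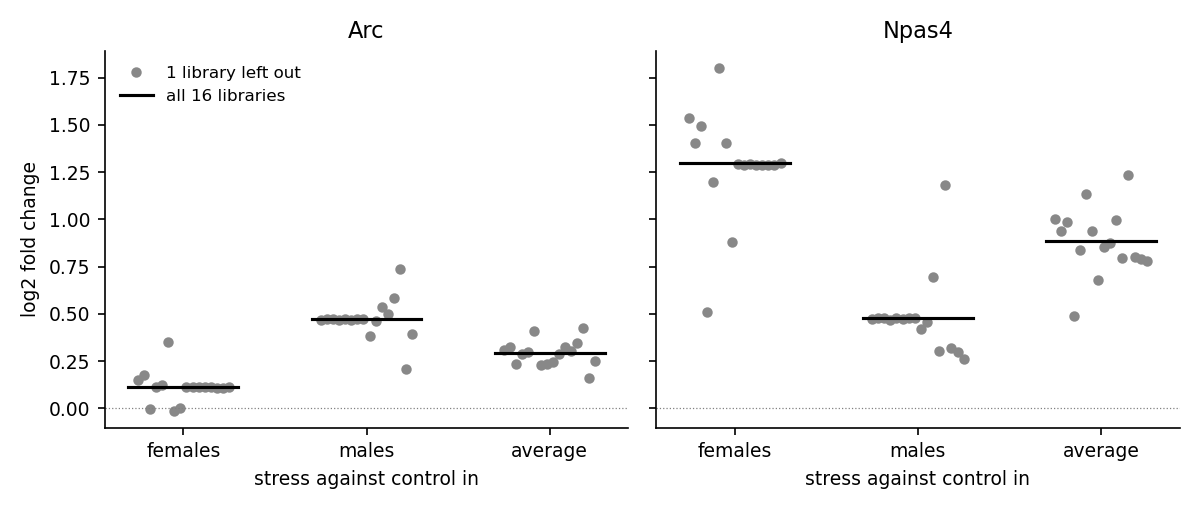
Log2 fold change of Arc and Npas4 for stress in females, in males and on average, with all 16 libraries (black line) and with each library left out in turn (grey points, 16 per column). Npas4 in females runs from 0.51 to 1.80 and in males from 0.26 to 1.18; Arc in females runs from -0.01 to 0.35.

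Libraries of a group differed more in these genes than the trend for genes of a similar level. The biological coefficient of variation, which edgeR estimates within groups beyond counting error, was 0.58 for Npas4, against 0.27 for the trend at its abundance. Relative to that trend Npas4 was more variable than 99.5% of the genes tested. For Arc the value was 0.27 against a trend of 0.16, more than in 98.5% of genes. With all 16 libraries, both genes thus lie in the upper tail of the spread within groups. Single libraries carried part of this spread. For stress in females, the SE of Arc fell from 0.284 to 0.205 without control male 3. That of Npas4 fell from 0.646 to 0.549 without control male 1. With any other male library left out, the SE was 0.25 to 0.30 for Arc and 0.65 to 0.68 for Npas4. For stress in males, the SE of Npas4 fell from 0.621 to 0.511 without stressed female 4 and to 0.546 without control female 4. That of Arc fell from 0.283 to 0.258 without control female 2. With any other female library left out, the SE was 0.28 to 0.31 for Arc and 0.59 to 0.66 for Npas4. The place in the tail without these libraries was not computed.

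The spread was not the same in each group. For Arc the coefficient of variation of the CPM was 16.4% in stressed and 34.5% in control females, and 13.3% in stressed and 47.7% in control males, where counting alone would give 5.79% to 6.66%. For Npas4 it was 85.0% in stressed and 69.4% in control females, and 35.5% in stressed and 79.4% in control males, where counting alone would give 11.9% to 19.0%. The counting values hold at the mean count of each group, and libraries with fewer counts have a larger counting error. Values of 4 libraries estimate such a spread poorly, and a difference in spread between groups was not tested.

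**Figure D4:**
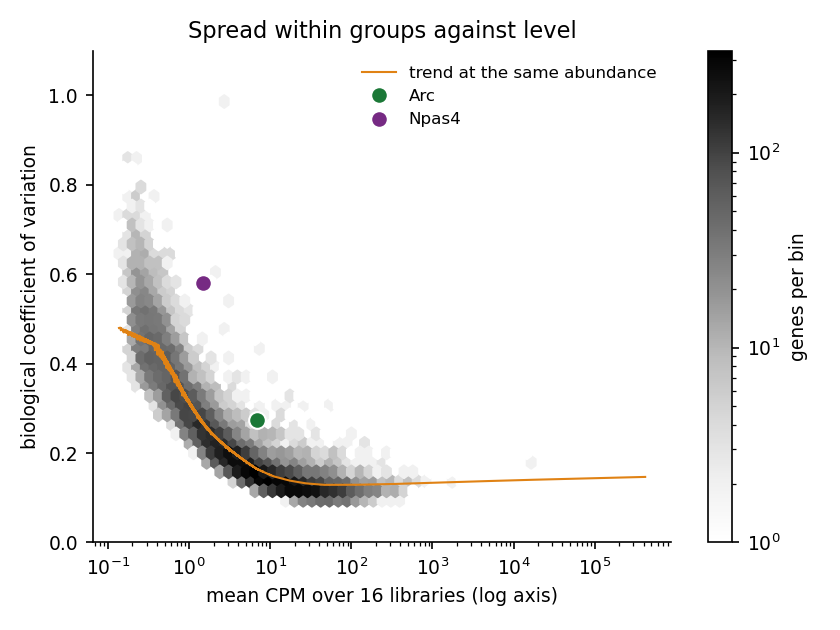
Biological coefficient of variation within groups against mean CPM (log axis) for the 14241 genes tested (grey bins, shaded by number of genes) with the trend (orange). Npas4 (purple, 0.58) and Arc (green, 0.27) lie above the trend at their level.

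The correlation of Arc with Npas4 did not pass the adjusted threshold of 0.05. Across the 16 libraries the log2(CPM + 0.1) of the 2 genes gave Pearson's r of 0.42 (permutation p = 0.109, adjusted p = 0.219) and Spearman's rho of 0.55 (permutation p = 0.0286, adjusted p = 0.0571). The adjustment is over 2 relations, this one and that of the deviations from group means, which gave r = 0.36 and rho = 0.41 (permutation p = 0.239 and 0.160, adjusted p = 0.239 and 0.160). Without control males 3 and 4, the libraries farthest from the Arc median, r and rho were both 0.40 (permutation p = 0.154 and 0.156). Without stressed female 4, an unplanned check, they were 0.45 and 0.57 (permutation p = 0.0911 and 0.0296, not adjusted). For the deviations from group means that check gave 0.42 for both (permutation p = 0.227 and 0.196). In the 13 HTSeq libraries r and rho of the levels were 0.31 and 0.37 (permutation p = 0.301 and 0.219). Among the 8 stressed libraries they were 0.15 and 0.36 (permutation p = 0.729 and 0.391), and among the 8 controls 0.35 and 0.45 (permutation p = 0.386 and 0.268).

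**Figure D5:**
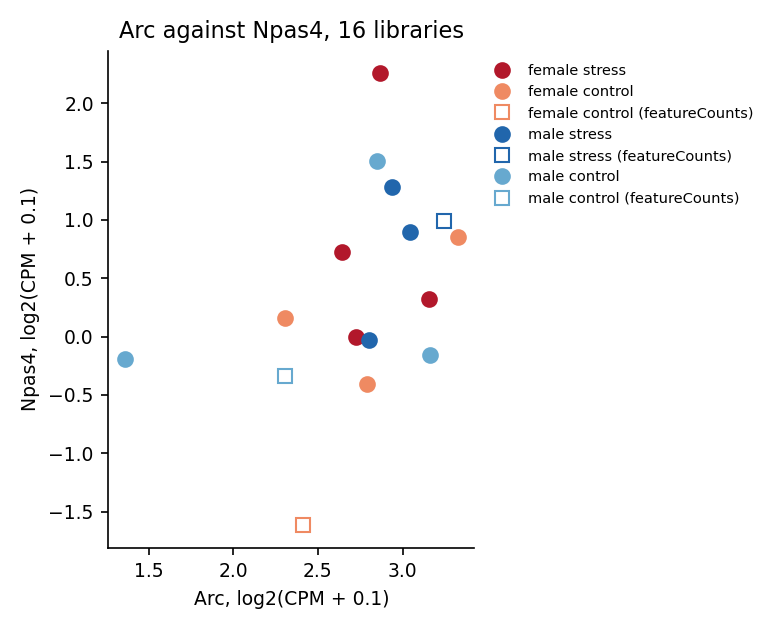
Npas4 against Arc in each of the 16 libraries, both as log2(CPM + 0.1), coloured by group, with squares for featureCounts libraries. The library highest in Npas4, a stressed female, is mid-range in Arc, and the library lowest in Arc, a control male, is not the lowest in Npas4.

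Among 11095 genes that averaged 1 CPM or more, Npas4 ranked 586 by its Pearson correlation with Arc, and Arc ranked 963 by its correlation with Npas4. The genes most like Arc across the 16 libraries were ENSRNOG00000010763 (chromosome 1, 157920786 to 157922274) and ENSRNOG00000028946 (chromosome 10, 102244681 to 102269272), each with a Pearson correlation of 0.81. Those most like Npas4 were ENSRNOG00000025140 (chromosome 7, 109037845 to 109205354), at 0.87, and ENSRNOG00000045816 (chromosome 10, 42614713 to 42760200), at 0.81. The files pair none of these identifiers with a name. The libraries differ in depth, mitochondrial share and counting tool, and these correlations are descriptions. In the 13 HTSeq libraries 1 of the 2 genes remained nearest for Arc and 0 of 2 for Npas4.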

How the data were processed

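Raw counts per Ensembl gene were deposited for 16 libraries. Per the submitters' processing notes, STAR 2.5.2a, HTSeq and the build Rnor_6.0 were used; per the file headers, 3 files came from featureCounts 1.6.1 with Ensembl release 92, with no strand option given. Lines that name no gene, 44.8% to 64.7% of HTSeq entries, were left out. Genes were tested with edgeR 4.0.16 in R 4.3.3 (TMM, filterByExpr, robust quasi-likelihood fits of 4 group means to all libraries), with Benjamini-Hochberg adjustment over 14241 genes; calls are adjusted p under 0.05. Exact permutation tests and correlations (100000 permutations) used scipy 1.17.1 and log2(CPM + 0.1). The fit was tested on simulated data. DESeq2 1.42.0 and limma 3.58.1 were alternatives, with RLE factors, nuclear genes only, no filter, the counting tool left out or as a covariate, groups fitted alone and each library left out.

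Arc, Npas4 and all lists were chosen with earlier results of these data known. Lists of activity genes and cell type markers, given by symbol, could not be applied because no table pairs symbols with the identifiers, so the labelled tissue was not checked against markers. Named genes were Arc, Npas4 and, for each, the 2 with the highest Pearson correlation. Promoter sequence is from RefSeq (GRCr8), where 1 of the 2 genes, Npas4, matched.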

Additional observations from a re-analysis of the deposited data

Results flagged for a closer look

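Npas4 in control male 1 stood far from the other libraries of its group, at 2.73 CPM against 0.691 to 0.794 CPM. Its 91 counts give a 95% counting interval of 2.20 to 3.36 CPM. Arc in the same library was 7.12 CPM, inside the range of the other control males. This was the 1 library found among 12 groups of 4 values (Arc, Npas4 and their ratio per kilobase), where chance gives about 1 in 20. For stressed female 4, the gap of its Npas4 level to the next library made up 0.826 of the range of its group, just under the 95% limit of Dixon's test for 4 values.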

How the results depend on the processing

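Of 284 log2 fold changes of Arc and Npas4 under alternatives, 2 passed the adjusted threshold of 0.05, both for Npas4 by edgeR with no filter on low counts: 1.29 in females and 0.88 on average. The Npas4 difference between stressed females and stressed males turned to -0.0061 with the counting tool as a covariate. With each library left out in turn, signs turned for Arc with stress in females (-0.012 to 0.35), for Arc between the sexes in controls (-0.058 to 0.47), and for Npas4 between the sexes in controls (-1.06 to 0.17) and in stressed rats (-0.50 to 0.51). TMM against RLE factors, and nuclear genes only, turned no sign and changed no call.

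Counts of called genes moved with the tool and filter. DESeq2 was also run without the low-count filter and gave an unadjusted p for 25179 genes, against 14241 in the main fit. Its adjusted p used the tool's default filter on mean count, and how many genes that kept was not recorded. For stress in females, 9 genes were called, against 105 with no filter, 27 by DESeq2 and 14 in the HTSeq libraries. For males these were 17, 88, 31 and 5, with 11 by limma voom, 27 with males fitted alone and 7 to 21 with a library left out. For the average they were 48, 207, 108 and 29, with 28 to 56 with a library left out. For the difference between sexes 0 were called, 36 with no filter and 1 by DESeq2. Between the sexes, 16 were called in controls (54 with no filter, 10 in the HTSeq libraries) and 13 in stressed rats (105 with no filter). No paired analysis was possible because replicates are numbered here in accession order, no number in the titles occurs in more than 1 group, and the labels tie no libraries to a shared litter, batch or day. At the mean count of each group, depth sets a counting error of 11.9% to 19.0% for Npas4 and 5.79% to 6.66% for Arc. These are below the observed variation in every group (35.5% or more and 13.3% or more). In libraries with fewer counts than the mean of their group the counting error is larger.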
